A study of Mus musculus with 18 samples.

Results

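The Hoxb cluster is a run of 10 homeobox genes on mouse chromosome 11, from Hoxb13 to Hoxb1, all on the plus strand. The regions described here are those that overlap the window from 4.32 kb before Hoxb13 to 6.74 kb after Hoxb1 (185 kb of mm10), each given to its nearest Hoxb gene, and they number 92 of the 411770 regions that the CD11b+ table lists and 104 of 553467 in the CD4+ table. The cells were isolated from spleens of Dnmt3a+/+ (WT) and Dnmt3a R878H/+ mice, 4 of each genotype for each cell type, on a C57BL/6 background, CD11b+ cells being myeloid cells and CD4+ cells helper T cells. The mutant mice carry the heterozygous R878H allele of Dnmt3a (named Dnmt3aR878/+ in the labels) in blood cells, because the floxed allele was recombined by Vav1-iCre, a Cre active throughout hematopoiesis. For its transplant controls the study used the name Dnmt3a+/+ for mice that carried Cre without the mutant allele as well as for Cre- Dnmt3a fl-R878H/+ mice, and which of them gave the WT spleens is not given in the sources used here. By its methods, mice were young adults matched for sex and age. Whole-genome bisulfite sequencing (WGBS) reads methylated cytosines as protected from conversion, and metilene, which cuts the genome into regions and compares a pair of groups, gave 1 mean per genotype and region in percent.

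Only these group means are used here, so every level below is the authors' mean of 4 mice with no error between mice, the read depth behind it is unknown, and no difference could be tested across mice. Entries of Dnmt3a R878H/+ CD11b+ cells number 6 for 4 mice. The entry titles carry S numbers of unstated meaning, which in CD4+ cells fall in a later block in all 4 Dnmt3a R878H/+ entries and in an earlier block in 3 of the 4 WT entries, so genotype and whatever these numbers stand for cannot be told apart there. In CD11b+ cells the later block holds 2 of the 6 Dnmt3a R878H/+ entries and 0 of the 4 WT entries, so the imbalance is partial there. Neither the cell identity nor the genotype can be checked on these tables, and every direction rests on reading the first group of each table as WT. A region is called a DMR here when it has more than 10 listed CpG cytosines, a difference above 20 percentage points and a metilene q below 0.05, and hypomethylated when Dnmt3a R878H/+ is the lower genotype.

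Hox genes encode transcription factors with a DNA-binding homeodomain, and their order along the chromosome follows the order in which they act along the body axis, Hoxb1 at the 3′ end marking anterior and Hoxb13 at the 5′ end posterior identity. In blood, Hoxb genes such as Hoxb3 and Hoxb4 are active in stem and progenitor cells and are turned down as cells mature, and forced Hoxb4 is known for expanding stem cells. DNMT3A is a de novo DNA methyltransferase, and the mouse R878H change corresponds to the most frequent hotspot of human DNMT3A mutation. Methylation of CpGs across Hox clusters is one of the layers, with Polycomb and Trithorax marks, that accompany their silent and active states.

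The loss of methylation in Dnmt3a R878H/+ cells was concentrated between Hoxb6 and Hoxb2, with its largest values in both cell types over the start of Mir10a, a miRNA gene just before Hoxb4. In the listed region shared by both cell types there (chr11:96316845-96317234), CD11b+ cells of WT mice were 77.4% methylated and those of Dnmt3a R878H/+ mice 27.6% (q = 2.1e-08), and over the longer region of CD4+ cells (chr11:96316488-96317234) the levels were 82.8% and 39.6% (q = 1.5e-06). Both regions lie between genes with respect to coding genes, end 1033 bp before Hoxb4, and hold 70 of the 110 bases of the Mir10a hairpin, including all of the mature miR-10a-5p. The sequences that follow are the middle 300 bases of the CD11b+ region (chr11:96316890-96317189), the region just before the first exon of Hoxb4 (chr11:96317810-96318100), a stretch of the Hoxb3 coding exon with the next largest loss among CD11b+ DMRs (chr11:96345881-96346180), the shortest DMR of the cluster, found in CD4+ cells (chr11:96260397-96260426), and the single large gain of the cluster, found at Hoxb2 in CD11b+ cells (chr11:96352997-96353141). All are from the plus strand of mm10, with CpGs in capitals. The first, labeled Before Mir10a, runs into the Mir10a hairpin, which starts at chr11:96317165, and ends within the mature miR-10a-5p.
Before Mir10a: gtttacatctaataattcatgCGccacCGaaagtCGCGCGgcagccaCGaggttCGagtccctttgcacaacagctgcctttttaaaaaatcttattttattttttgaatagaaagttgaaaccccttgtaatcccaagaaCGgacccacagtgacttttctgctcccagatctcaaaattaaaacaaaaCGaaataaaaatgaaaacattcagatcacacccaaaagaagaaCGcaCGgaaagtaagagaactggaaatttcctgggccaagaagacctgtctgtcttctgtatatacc
Before Hoxb4: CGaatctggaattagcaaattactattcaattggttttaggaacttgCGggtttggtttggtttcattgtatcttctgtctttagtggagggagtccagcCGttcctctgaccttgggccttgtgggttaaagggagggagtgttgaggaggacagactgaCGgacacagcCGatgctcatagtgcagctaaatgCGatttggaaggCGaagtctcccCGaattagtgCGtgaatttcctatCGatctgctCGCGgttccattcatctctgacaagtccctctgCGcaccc
Hoxb3 coding exon: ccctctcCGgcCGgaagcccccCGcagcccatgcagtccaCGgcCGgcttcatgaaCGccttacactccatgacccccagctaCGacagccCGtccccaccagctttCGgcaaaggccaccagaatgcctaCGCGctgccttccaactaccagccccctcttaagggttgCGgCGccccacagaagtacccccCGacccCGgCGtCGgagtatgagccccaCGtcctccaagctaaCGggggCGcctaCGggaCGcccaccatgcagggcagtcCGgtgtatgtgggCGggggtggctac
Gm53 intron: gctgcaCGtggaCGCGCGCGCGcactcaCG
Hoxb2 coding exon: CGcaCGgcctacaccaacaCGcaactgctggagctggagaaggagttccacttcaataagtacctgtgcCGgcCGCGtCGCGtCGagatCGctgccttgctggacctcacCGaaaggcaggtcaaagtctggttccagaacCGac

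The window also holds a second miRNA gene, Mir196a-1 (chr11:96265164-96265265), before Hoxb9. Both miRNA genes sit between Hox genes and their mature products are known to target Hox transcripts, and the 5p products are printed from RefSeq with the seed (bases 2 to 8) in capitals. The seeds differ, so these miRNAs belong to different seed groups.
miR-10a-5p: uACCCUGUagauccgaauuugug
miR-196a-5p: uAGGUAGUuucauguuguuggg

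By the criteria above, 9 of the 92 regions of CD11b+ cells (9.78%, exact 95% interval over regions 4.57% to 17.8%) and 9 of the 104 regions of CD4+ cells (8.65%, 4.03% to 15.8%) were hypomethylated DMRs, against 0.576% and 0.665% of all listed regions. No region of the cluster was a hypermethylated DMR by metilene's q in either cell type. Such DMRs were rare everywhere, 52 of the 411770 CD11b+ and 3 of the 553467 CD4+ regions, so their absence is no trait of the cluster. Dnmt3a R878H/+ was the lower genotype in 89 of 92 and in 103 of 104 regions, which reads against 93.4% and 95.5% of all listed regions. The difference exceeded 20 points, whatever the q, in 23 regions of CD11b+ cells (25%) and 27 of CD4+ cells (26.0%), against 7.01% and 6.23% of all listed regions. The median loss of the cluster was 11.9 points in CD11b+ cells (middle 50% of regions 5.75 to 20.3) and 11.4 points in CD4+ cells (7.69 to 21.3), beside 6.55 and 6.85 points over all listed regions. The cluster started from a lower level, its median WT methylation being 58.6% and 56.9% where that of all listed regions was 88.9% and 89.9%.

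**Figure D1:**
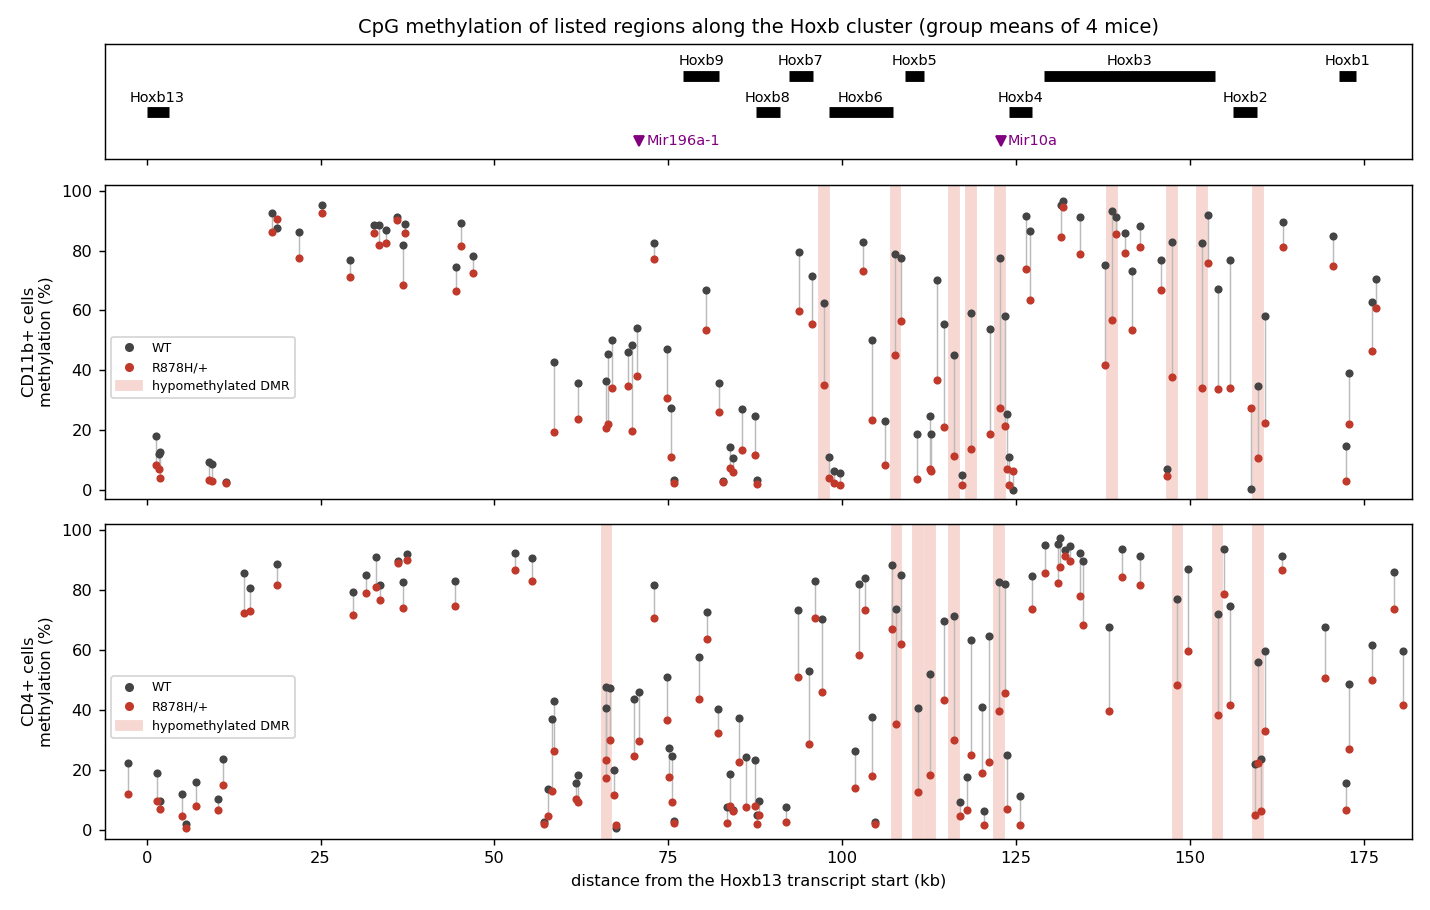
Mean methylation (%, y axis) of each listed Hoxb region against its distance from the Hoxb13 start (kb, x axis), in CD11b+ cells (middle) and CD4+ cells (bottom), with the Hoxb genes and miRNA genes on top. Black points are WT and red points Dnmt3a R878H/+ means of 4 mice, joined by a grey line per region; pink bands of a fixed width mark hypomethylated DMRs, which number 9 in each cell type and lie from just before Hoxb6 to Hoxb2 except for 1 CD4+ DMR before Hoxb9.

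The DMRs were not spread evenly. Between 2 kb before Hoxb6 and 2 kb after Hoxb2, a stretch of about 64.4 kb chosen after the values were seen, lay 44 of the 92 CD11b+ regions with 9 of the 9 DMRs, and 43 of the 104 CD4+ regions with 8 of the 9 DMRs. All 15 CD11b+ regions of the cluster with a loss above 30 points and 10 of the 11 such CD4+ regions were in it. The median loss was 5.48 points near Hoxb13, 12.8 points near Hoxb9 to Hoxb7, 18.4 points near Hoxb6 to Hoxb4 and 12.3 points near Hoxb3 to Hoxb1 in CD11b+ cells. In CD4+ cells the same groups had 7.54, 10.1, 22.7 and 16.1 points, so Hoxb6 to Hoxb4 had the highest median and Hoxb13 the lowest in both cell types. Near Hoxb13 the median WT level was 86.2% and 80.01%, but single regions ranged from 2.78% to 95.1% in CD11b+ and from 1.78% to 92.0% in CD4+ cells. The gene itself was low, with 12.1% in WT and 7% in Dnmt3a R878H/+ at chr11:96195920-96196113 (CD11b+), and 19.0% and 9.73% at chr11:96195536-96196113 (CD4+). The median losses near Hoxb13 were close to those of 5.65 and 6.11 points over all listed regions with more than 80% methylation in WT. That comparison matches only the more methylated regions near Hoxb13.

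**Figure D2:**
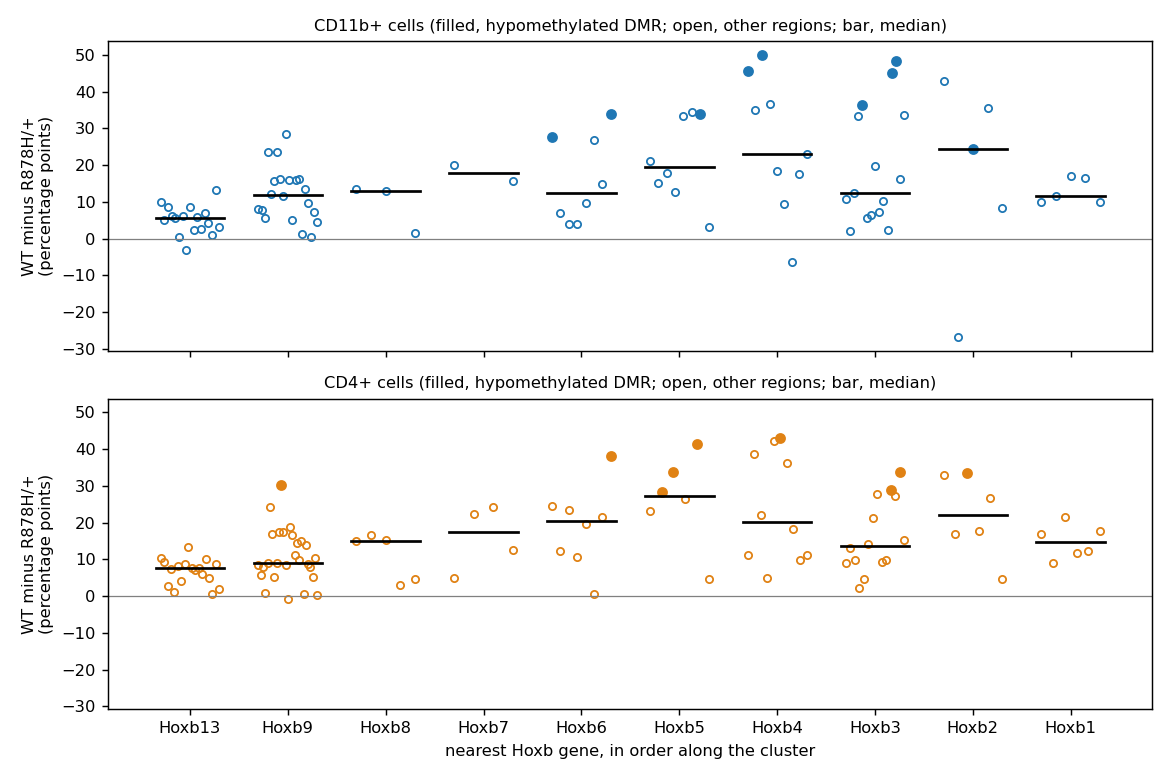
WT minus Dnmt3a R878H/+ methylation (percentage points, y axis) of every listed region, placed at its nearest Hoxb gene in chromosomal order (x axis), for CD11b+ cells (top) and CD4+ cells (bottom). Filled points are hypomethylated DMRs, open points other regions and black bars medians; the points near Hoxb13 stay at or below 13.3, while regions near Hoxb4 reach 49.8 and 43.1.

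Hoxb4, the member best known for stem cell expansion, had 9 CD11b+ and 10 CD4+ regions, and its first exon bounded a steep gradient of methylation in both genotypes. Toward Hoxb5, at chr11:96312578-96313112, CD11b+ cells had 59.2% in WT and 13.7% in Dnmt3a R878H/+, a DMR (q = 6e-04) in which 76.9% of the WT level was gone. The nearly identical CD4+ region had 63.5% and 24.96%, with q = 0.064, and was therefore no DMR. Closer to the gene, past the Mir10a region, the levels of CD11b+ cells dropped stepwise toward the start. CD4+ cells still had 81.95% and 45.75% at chr11:96317676-96317777, and were lower only in the next region. At chr11:96317619-96317777 CD11b+ cells had 58.1% and 21.5%, and at chr11:96317810-96318100, printed above, they had 25.3% and 6.87%. The last loss, of 18.4 points, missed the limit of 20 points with q = 0.0067, and the CD4+ region that begins beside it had 25.1% and 6.91% (loss 18.2 points, q = 0.00042). Over the first exon of Hoxb4 (chr11:96318115-96318592) CD11b+ cells had 11.0% and 1.55%, whereas the end of the gene (chr11:96320872-96321643) had 86.7% and 63.5%. The start of Hoxb4 was already low in WT, and the largest differences were in the methylated shoulder before it.

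Hoxb5 and the gap between it and Hoxb4 held the strongest CD4+ calls. The region of largest loss near Hoxb5 in CD4+ cells, chr11:96309818-96310865 between genes, had 71.3% in WT and 29.99% in Dnmt3a R878H/+ (q = 6.3e-14). Its CD11b+ counterpart, chr11:96310025-96310823, started at a lower WT level of 45.3% and had 11.3% in Dnmt3a R878H/+ (q = 5e-10), so the losses of 41.3 and 34.0 points began from WT levels 26.0 points apart. The other CD4+ DMRs of this gene were in its coding exon (chr11:96304976-96305512, 40.7% and 12.5%) and just past its end, across the start of the antisense gene Hoxb5os (chr11:96306738-96307251, 52.1% and 18.2%). CD11b+ regions that overlap these DMRs had lower WT levels, 18.8% at chr11:96304935-96305123 and 24.7% at chr11:96306799-96306965. Their losses of 15.0 and 17.7 points were below the limit. These CD11b+ regions cover only 27.6% and 32.5% of the CD4+ DMRs, so the means rest on partly different CpGs. The largest CD11b+ loss near Hoxb5 was 34.5 points at chr11:96308602-96309381 (55.5% and 20.96%), which metilene gave a q of 1.

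Hoxb6, whose alternative transcripts span 9094 bp, had a DMR at or just past its 3′ end in both cell types. In CD11b+ cells chr11:96301496-96302436 had 78.8% and 45.0% (q = 0.0024), and in CD4+ cells chr11:96301825-96302391 had 73.7% and 35.5% (q = 2e-04). These regions lie in an intron of Hoxb5os and within 1 kb of an annotated Hoxb5 start, and a nearest-start assignment gives them to Hoxb5. A second CD11b+ DMR, chr11:96291015-96292295, ended 181 bp before the first Hoxb6 start and had 62.6% and 34.95% (q = 0.033), the weakest q among the DMRs. The CD4+ region inside it, chr11:96291105-96291718, had 70.6% and 46.0%, a loss of 24.6 points with q = 1. The Hoxb6 start itself had little methylation to lose, 11.0% and 4.13% in CD11b+ cells at chr11:96292413-96292510.

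Hoxb3, the longest gene of the cluster and a paralog of Hoxa3, had 15 CD11b+ regions with 3 DMRs and 14 CD4+ regions with 2 DMRs. Its largest CD11b+ loss was in the coding exon printed above, chr11:96345868-96346194, with 82.5% and 34.2% (q = 6.7e-05), where an exon of the antisense gene Hoxb3os also lies. The strongest CD11b+ q of the cluster, 4.7e-16, belonged to chr11:96341406-96342129, within 1 kb of an internal Hoxb3 start and across the start of the antisense gene Gm11536, where WT had 82.9% and Dnmt3a R878H/+ 37.8%. The third, chr11:96332896-96333286, was in an intron, had 93.1% and 56.7%, and was the most methylated DMR of the cluster in WT.

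In CD4+ cells the largest Hoxb3 loss was at the 3′ end, outside the coding part (chr11:96347728-96348865, 72.2% and 38.5%, q = 0.0019). The same interval was listed in CD11b+ cells with 67.3% and 33.8%, a loss of 33.5 points that differed from the CD4+ loss by 0.23 points, but with q = 0.11. The call there differed between the cell types while the measured losses nearly coincided, and the difference between the cell types was not tested. The other CD4+ DMR of Hoxb3 (chr11:96342038-96343004, 77.2% and 48.3%) overlapped the CD11b+ DMR at Gm11536 by only 92 bp. That stretch is 12.7% of the CD11b+ and 9.51% of the CD4+ DMR, so their means cover mostly different CpGs.

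Hoxb2, which acts in hindbrain patterning with Hoxb1, had 1 DMR per cell type over its last exon and the first exon of Hoxb3os, which runs on the opposite strand. CD11b+ cells had 34.8% and 10.6% at chr11:96353570-96354724 (q = 0.0011), and CD4+ cells had 56.0% and 22.4% at chr11:96353748-96354490 (q = 0.015). Before its start, at chr11:96349714-96350367, CD11b+ cells had 76.98% and 34.1%, the largest loss near Hoxb2 at 42.8 points, yet with only 11 CpG cytosines and a q of 0.98.

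Hoxb2 also held the largest gain of the cluster. In the coding exon printed above, which encodes part of the homeodomain, CD11b+ cells had 0.43% in WT and 27.3% in Dnmt3a R878H/+ over 14 CpG cytosines, 26.8 points higher in the mutant, with q = 1. No CD4+ region was listed over it. The region lies before the CD11b+ DMR of the last exon, where the mutant was the lower genotype. The only CD4+ region of the cluster with a higher mutant mean was an exon of Gm53 before Hoxb9, with 0.65% and 1.48%.

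Hoxb1, the 3′ end gene, had no DMR among 5 CD11b+ and 6 CD4+ regions. Its largest losses were in the same coding exon, 39.0% and 21.9% at chr11:96366845-96367427 in CD11b+ cells and 48.7% and 27.0% at chr11:96366870-96367658 in CD4+ cells, with q = 1 in both. Hoxb7 and Hoxb8, between Hoxb6 and Hoxb9, had none either. Hypomethylated DMRs were 0.576% (CD11b+) and 0.665% (CD4+) of all listed regions, so their absence in so few regions does not set these genes apart. Near Hoxb7 the largest losses were 19.98 points in an intron (chr11:96287782-96288459, 79.7% and 59.7%, CD11b+) and 24.2 points in an exon (chr11:96289480-96289608, 52.9% and 28.7%, CD4+). Near Hoxb8 WT methylation was at most 27.0% in CD11b+ and 37.4% in CD4+ cells, and the losses did not exceed 13.5 and 16.6 points.

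Hoxb9 was nearest to 20 CD11b+ and 27 CD4+ regions, most of them in the gap before it that holds Gm53, a long noncoding RNA gene, and Mir196a-1. Its CD4+ DMR was the 30-base Gm53 intron segment printed above, where 15 CpG cytosines had 47.7% in WT and 17.4% in Dnmt3a R878H/+ (q = 0.00068). The segment holds only 7 whole CpG dinucleotides, because the tables count the cytosines of both strands, and it is the only DMR of the cluster with 10 or fewer dinucleotides. The CD11b+ region over it, chr11:96260308-96260425, had 36.3% and 20.6% (q = 1). The largest CD11b+ loss near Hoxb9 was also in Gm53 (chr11:96263972-96264160, 48.3% and 19.9%, q = 1), and the Mir196a-1 hairpin lay in regions with losses of 16.1 points in CD11b+ and 16.6 points in CD4+ cells.

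Hoxb13, a posterior gene far from the others and best known in the prostate and hind body, had 17 CD11b+ and 18 CD4+ regions and no DMR. Beside 0.576% (CD11b+) and 0.665% (CD4+) of all listed regions, that absence does not set Hoxb13 apart. The largest losses were 13.3 points in both cell types, at chr11:96230961-96231270 (81.8% and 68.6%, CD11b+) and chr11:96208146-96208512 (85.7% and 72.4%, CD4+). Of the remaining noncoding genes of the window, Gm27898, Gm27605 and Gm11539 had no listed region. Across the noncoding genes with regions, Hoxb5os held 2 CD11b+ and 3 CD4+ DMRs, Hoxb3os 2 and 2, Gm11536 1 and 1, Mir10a 1 and 1, Gm53 0 and 1, and Mir196a-1 none.

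Because a region can lose only what it has, the cluster was set beside all listed regions of the same WT level. Among regions with 40% to 60% methylation in WT, the median loss was 27.6 points for 14 Hoxb regions of CD11b+ cells against 15.9 points for all listed regions. The 17 such CD4+ regions had 18.8 points against 15.0 points. Between 60% and 80% the medians were 19.8 against 12.8 points (18 Hoxb regions, CD11b+) and 27.9 against 12.6 points (15 Hoxb regions, CD4+), and above 80% they were 7.65 against 5.65 and 9.91 against 6.11 points. The Hoxb median was the higher one at every WT level in both cell types.

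**Figure D3:**
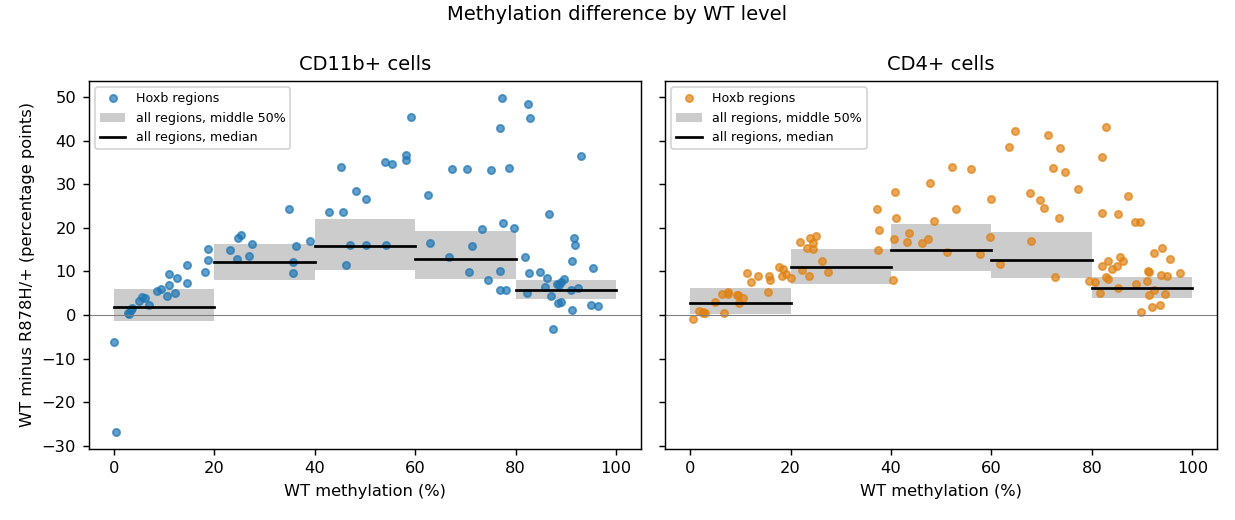
WT minus Dnmt3a R878H/+ methylation (percentage points, y axis) against WT methylation (%, x axis) for the Hoxb regions of CD11b+ cells (left) and CD4+ cells (right). Black lines and grey boxes give the median and the middle 50% of all listed regions in steps of 20% WT methylation; the Hoxb regions between 40% and 80% include many above the boxes, and the point at 0.43% WT and -26.8 points is the gain at Hoxb2.

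The sequence and position of the DMRs were set beside those of the other regions with more than 10 CpG cytosines, 46 in CD11b+ and 49 in CD4+ cells, and the ranges overlapped widely. Their median CpG density was 3.59 dinucleotides per 100 bp in CD11b+ cells (range 2.24 to 9.97) and 3.11 in CD4+ cells (2.11 to 23.3), beside 2.16 (0.79 to 10.2) and 2.27 (0.78 to 7.35) in the others. The medians of GC content were close, at 49.4% for both CD11b+ sets and at 47.8% and 48.7% for the CD4+ sets. The DMRs lay at a median of 1939 bp and 1660 bp from the nearest Hoxb transcript start, beside 3544 bp and 3185 bp for the others. The others include regions in the gap between Hoxb13 and Hoxb9, up to 36994 bp and 37082 bp from a start. Distance to a start was therefore not separated from position along the cluster. None of the DMRs spanned a Hoxb start, the nearest being 181 bp away. Few of all other regions of the cluster did so either, 4 of 83 in CD11b+ and 2 of 95 in CD4+ cells. An annotated start of the antisense genes Hoxb5os, Gm11536 or Hoxb3os was spanned by 2 of the 9 CD11b+ and 4 of the 9 CD4+ DMRs. Of all other regions of the cluster, 3 of 83 and 1 of 95 spanned one. By annotation, the CD11b+ DMRs were 3 of 23 promoter regions, 2 of 12 exonic, 1 of 11 intronic and 3 of 46 intergenic regions, and the CD4+ DMRs 2 of 25, 3 of 10, 0 of 9 and 4 of 60. The widths of these regions were set by metilene and differ between the cell types, so such features partly describe its segmentation.

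The cell types were compared where both tables list a region. Of the 9 DMRs in each cell type, 5 overlapped a DMR of the other by at least 1 base, which is 55.6% of each list. The same share over all DMRs was not computed, so whether 55.6% is particular to the cluster is unknown. A listed CD4+ region overlapped 8 of the 9 CD11b+ DMRs, and a listed CD11b+ region overlapped all 9 CD4+ DMRs. Over the 28428 bp covered in both, WT methylation averaged 58.5% in CD11b+ and 61.8% in CD4+ cells, and the losses averaged 18.0 and 17.9 points. In 37 pairs that overlapped by at least 50% of each region, both cell types had the lower value in Dnmt3a R878H/+ in 36, the losses differed by at most 10 points in 36 and by at most 5 points in 24, and the CD4+ WT level was the higher one in 26. Dnmt3a R878H/+ was the lower genotype in 93.4% (CD11b+) and 95.5% (CD4+) of all listed regions. Agreement of losses was not computed for pairs outside the window, so these counts cannot be called particular to the cluster. Pearson's r between the losses was 0.93 over these 37 pairs, a description of regions that share a segmentation method and, where neighbours abut, local sequence. Whether the CD11b+ and CD4+ cells came from the same mice is not given in the sources used here. The values of the cell types may therefore not be independent. Among these 37 pairs the WT level differed most in the gap before Hoxb4 described above (26.0 points), just before Hoxb4 (23.9 points) and at the last exon of Hoxb2 (21.2 points), with CD4+ cells the more methylated at each. Pairs with less overlap, whose means cover partly different CpGs, differed by more and in both directions, from 18.8% in CD11b+ against 52.1% in CD4+ cells past the end of Hoxb5 (over chr11:96306995-96307218) to 50.2% against 20% in Gm53 (over chr11:96261339-96261530).

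**Figure D4:**
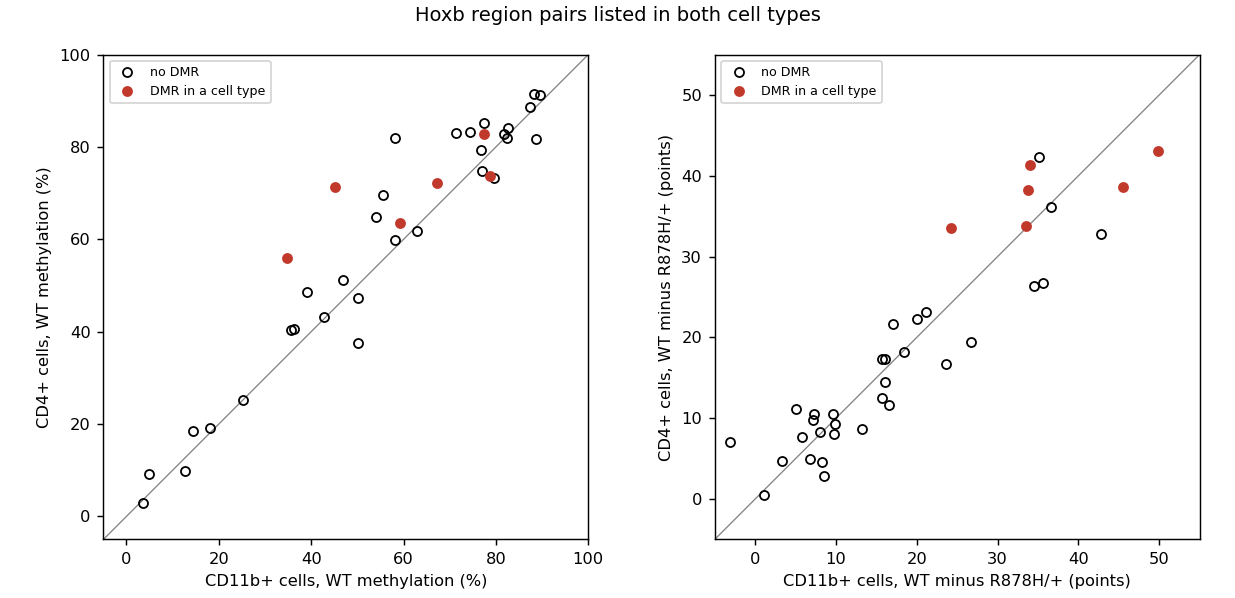
The 37 pairs of Hoxb regions that overlap by at least 50% of each, with CD11b+ cells on the x axis and CD4+ cells on the y axis, for WT methylation (%, left) and for WT minus Dnmt3a R878H/+ (percentage points, right); grey lines mark equal values. Red points are pairs with a DMR in at least 1 cell type, and the losses lie within 10 points of the line in 36 pairs.

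The flanks of the window held no DMR. As only 0.576% (CD11b+) and 0.665% (CD4+) of all listed regions were hypomethylated DMRs, 0 in sets of this size does not set the flanks apart. In the 185 kb before it, which hold other genes, 0 of 52 CD11b+ and 0 of 58 CD4+ regions were DMRs by metilene's q, and in the 185 kb after it 0 of 85 and 0 of 98, with median losses between 6.05 and 7.81 points. Among the other Hox clusters, taken with the same mean margin, Hoxa had 14 DMRs in 70 CD11b+ regions (20%, interval 11.4% to 31.3%) and 15 in 87 CD4+ regions (17.2%, 9.98% to 26.8%), with median losses of 17.1 and 16.3 points. The intervals of Hoxa and Hoxb overlapped in both cell types. Hoxc and Hoxd had no DMR by metilene's q among 29 and 33 CD11b+ and 50 and 58 CD4+ regions, with 0 and 1 regions (CD11b+) and 1 and 2 regions (CD4+) above 20 points whatever the q, and their median WT methylation, from 13.1% to 27.6%, was far below that of Hoxb. Beside the same shares, 0 DMRs in so few regions does not set Hoxc and Hoxd apart from all listed regions.

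**Figure D5:**
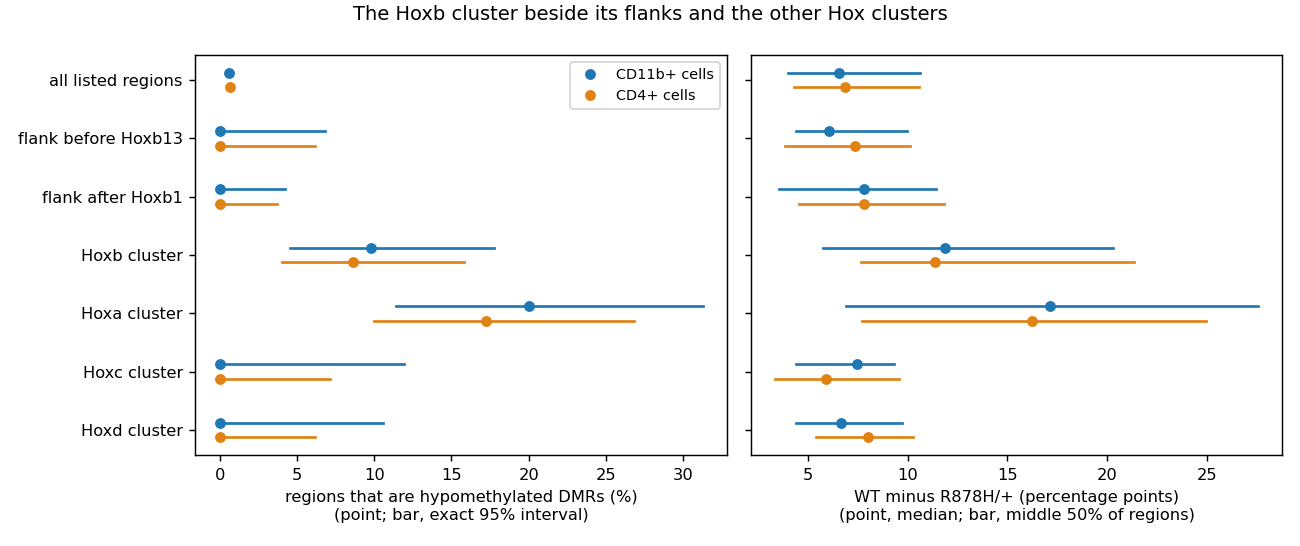
The Hoxb cluster beside all listed regions, its flanks and the other Hox clusters, in CD11b+ cells (blue) and CD4+ cells (orange). The left panel gives the share of regions that are hypomethylated DMRs (%) with exact 95% intervals over regions, which is 9.78% and 8.65% in Hoxb; the right panel gives the median WT minus Dnmt3a R878H/+ difference (percentage points) with the middle 50% of regions.

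Hox proteins bind DNA with cofactors of the Pbx, Meis and Pknox families, Cdx factors act upstream of Hox genes, and Kmt2a with Men1 and the Polycomb genes maintain their active and silent states. Of 17 such genes, 15 had an eligible region (more than 10 CpG cytosines) in the gene body in each cell type. A hypomethylated DMR lay in the body of 1 of them in CD11b+ cells, Meis1, and of 3 in CD4+ cells, Meis1, Pbx3 and Cdx1, against 8.41% and 10.5% of protein-coding genes with an eligible region. By the same count 3 of the 9 Hoxb genes with such a region had one in each cell type. At Meis1, the cofactor that works with Hox proteins in blood stem cells, the largest loss ended at the same base in both cell types, with 53.3% and 16.0% at chr11:19009241-19010090 in CD11b+ cells and 75.2% and 36.2% at chr11:19009157-19010090 in CD4+ cells. Meis1 is a long gene with 31 eligible regions in CD11b+ and 33 in CD4+ cells, which bears on counts per gene.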

How the data were processed

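The WGBS data, of spleen CD11b+ and CD4+ cells and of 4 mice per genotype, were taken from 2 deposited tables, 1 for each cell type. The authors mapped reads to mm10 with BISCUIT and listed regions with metilene; versions, metilene settings and a minimum coverage are not given in the sources used here. Each deposited table gives, per region, a methylation mean in percent for either genotype, a count of CpGs and a q-value computed by the authors with metilene. Columns holding the authors' own difference and further p-values were not used. The tables hold 0 columns of single mice and no depth, so no error between mice, no test across mice, no leave-one-out value and no coverage minimum was possible.

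The first group mean was read as WT because the tables do not name their groups and the paper draws WT as the more methylated genotype. Group means multiplied by 4 and by the listed number of CpGs were whole numbers in 100% of regions, within the rounding of the deposited values, against 50.0% in Dnmt3a R878H/+ CD11b+ cells when multiplied by 6, so the 6 entries of that group entered as 4 mice. On chromosome 11, 100% of region starts, counted from 0, and 100% of ends fell on a CpG cytosine of either strand, and the listed number of CpGs exceeded the number of CpG dinucleotides in 86.8% (CD11b+) and 92.5% (CD4+) of regions but never the number of cytosines of both strands. The listed number was therefore read as CpG cytosines of either strand, and starts were shifted to count from 1.

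The loss was recomputed as the WT mean minus the Dnmt3a R878H/+ mean. DMRs had more than 10 listed CpG cytosines, a difference above 20 percentage points and q below 0.05, after the study's criteria. Genes, exons and transcript starts came from GENCODE release 21, miRNA sequences from RefSeq (GRCm38.p6) and other sequences from that assembly. Regions were assigned to the nearest gene body, ties to the nearest transcript start, and promoters were the 1 kb on both sides of a start. Shares have exact (Clopper-Pearson) 95% intervals over regions, which are not replicates. The named items were all 10 genes, the noncoding genes of the window, each gene's region of largest loss and the largest gain per cell type; others were named after their values were seen. For 1 further gene of the list of cofactors and regulators the result is not reported here. The members and lists were chosen with earlier results of these data known. Alternatives were other limits on q, loss and CpGs, a narrower window, other gene assignment and a promoter of 2 kb. Scripts were tested on simulated data and ran in python 3.11.15 with pandas 2.3.3, scipy 1.17.1, numpy 2.4.6 and matplotlib 3.10.9.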

Additional observations from a re-analysis of the deposited data

How the results depend on the processing

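Without a limit on q, DMRs of the cluster numbered 18 (19.6% of regions) in CD11b+ and 20 (19.2%) in CD4+ cells, beside 3.24% and 3.08% of all listed regions. With more than 20 CpG cytosines, CD11b+ cells had 4 (4.35%, beside 0.26% of all listed regions), and the median loss over such regions was 17.1 points in CD11b+ and 28.2 points in CD4+ cells. Weighting by CpG cytosines gave mean losses of 16.1 and 16.6 points, outside the 95% intervals of the medians over regions, and over base pairs listed in both cell types the mean CD11b+ loss was 18.0 points, beside a median of 15.0 over its regions that overlap a CD4+ region. A q below 0.01, a loss above 10 or 30 points, no limit on CpG cytosines and the window without Hoxb13 kept counts within 1.5 times and shares within their intervals. So did more than 10 CpG dinucleotides, an alternative chosen after seeing the data, with 9 DMRs in CD11b+ and 8 in CD4+ cells. Assignment to the nearest transcript start moved DMRs between Hoxb6 and Hoxb5 in both cell types and from Hoxb3 to Hoxb2 in CD4+ cells, and a promoter of 2 kb raised promoter DMRs from 3 to 5 and from 2 to 5.

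No paired analysis was possible because the tables hold group means and no values of single mice, and for the same reason no replicate was left out. Depth is unknown, the group order was read from the paper's plots, and only about 32.7% (CD11b+) and 31.7% (CD4+) of the CpG dinucleotides of the window lie in listed regions.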

Other observations

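The cluster held 22 CD11b+ and 24 CD4+ regions with under 20% methylation in WT cells. A loss above 20 points is impossible from that level, so the definition alone excludes hypomethylated DMRs there, whatever the q. None of these regions was a hypermethylated DMR by metilene's q. Their median losses were 4.78 and 4.84 points, beside 1.80 and 2.75 points over all listed regions of that WT level. At the first exon of Hoxb8 (chr11:96281926-96282114) CD11b+ cells had 3.52% and 1.98%, and between Hoxb5 and Hoxb4 (chr11:96310911-96312111) they had 4.94% and 1.67%, right beside a DMR. A CD11b+ region further inside the first Hoxb4 exon (chr11:96318899-96318964) went the other way, with 0% in WT and 6.28% in Dnmt3a R878H/+ (q = 1). Together with the Hoxb2 exon, it is 1 of 3 CD11b+ regions of the cluster with the higher value in the mutant.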
